A study of Mus musculus with 3 samples.

Results

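*Stfa2*, *Stfa2l1*, *Stfa3*, *Gm5483*, *BC100530*, *Slpi*, *Wfdc17*, *Wfdc21*, and *Cstb* are small protease inhibitors, or genes of the same protein families, and were taken by gene symbol from 3 mouse single-cell libraries. They are 9 of the 27998 genes counted. They were chosen by their UMI levels, because stefin genes and *Wfdc17* led the late neutrophils of these same libraries. Their levels in neutrophils are therefore given as a description, with no test.

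The libraries came from male C57BL/6J mice, 10 weeks old, that had received burn/tenotomy, which is a burn to the back together with a full cut of the Achilles tendon, after which bone forms in the tendon (heterotopic ossification). Cells were collected 3 days later without sorting, as 1 library of bone marrow, 1 of blood, and 1 of the tendon injury site. Marrow was flushed, blood was layered on a Ficoll gradient (which enriches mononuclear cells), and only the injury site was digested with enzymes. What differs between sites cannot be told apart from what differs between preparations or libraries, no uninjured mice were analysed here, and neither the labels nor the methods state how many mice each library holds.

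After filtering, 1813 marrow, 2146 blood, and 4780 tendon cells were used, with medians of 22836, 8360.5, and 12178 UMIs (unique molecular identifiers, each standing for 1 captured transcript) per cell. Of the 9725 deposited barcodes, 9 were found in more than 1 library. Neutrophils, named by clusters from marker genes, were 1288 cells in marrow, 390 in blood, and 562 in tendon, with medians of 24139, 8534.5, and 3492 UMIs. The neutrophil marker *S100a8* stood at 142619, 153694, and 73340 CPM (UMIs of the gene per 1000000 UMIs of the cells summed) in these cells and at 4419, 1421, and 430 in all other cells of the same library. Genes of other tissue cells were low but present in tendon neutrophils, with 22.5 CPM of the fibroblast collagen gene *Col1a1* and 15.9 of the macrophage gene *C1qa*, against 1738 and 695 in the other tendon cells. The libraries also held 274, 146, and 398 cells whose clusters took no name. Among them were 62 tendon cells led by *Camp*, *Ngp*, *Ltf*, *Prtn3*, and *Elane*, genes of early neutrophils. Unnamed marrow clusters of 73 and 81 cells and an unnamed blood cluster of 115 cells had more monocyte/macrophage markers than markers of any other class. The monocyte and macrophage values of marrow and blood given below leave these cells out.

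Marrow neutrophils were divided by markers into promyelocytes (254 cells), which make the primary granules, cycling pre-neutrophils (230 cells), immature neutrophils (383 cells), and mature neutrophils (421 cells). Blood held 55 immature and 335 mature neutrophils. All 562 tendon neutrophils were named mature, which leaves out the 62 unnamed cells led by early granule genes. Stages were named per cluster, with each library clustered alone. Whether mature stands for the same stage at each site was not tested. Of the early genes, tendon neutrophils held *Ngp* at 1040, *Camp* at 917, and *Ltf* at 266 CPM, and *Elane* at 0 UMIs. The other tendon cells held *Ngp* at 85.5, *Camp* at 109, *Ltf* at 10.6, and *Elane* at 5.86 CPM. The members and their families were left out of the genes used for clustering.

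Stefins are cystatins without a signal peptide that act inside cells, where they bind the active site of cysteine cathepsins, the proteases of the lysosome. Stefin A in the mouse is a family of neighbouring gene copies, here *Stfa2*, *Stfa2l1*, *Stfa3*, *Gm5483*, and *BC100530*, whereas stefin B, made from *Cstb*, is a single gene used in most tissues. *Slpi*, *Wfdc17*, and *Wfdc21* carry whey acidic protein (WAP) domains, which are held together by disulfide bonds. *Slpi* is secreted and blocks neutrophil elastase and cathepsin G, and neutrophils and epithelia are known for making stefin A and *Slpi*.

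The 5 stefin A genes lie on chromosome 16 of GRCm38 between 36156811 and 36455392, and their coding sequences share 74.1% to 96.4% of bases with each other and 53.1% to 60.2% with *Cstb*. *Stfa2* and *Stfa2l1* are the closest pair. The stretch that codes for the inhibitory loop (glutamine, any residue, valine, any residue, glycine in the cystatin consensus) is shown because it is the part that enters the protease, and because it shows how near to each other the copies are. The 15 bases of the loop's 5 codons are in capitals, and the sequences are from the GRCm38 gene models.

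Stfa2 (chr16:36405133-36405177, minus strand): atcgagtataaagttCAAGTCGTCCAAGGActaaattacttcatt
Stfa3 (chr16:36452154-36452198, minus strand): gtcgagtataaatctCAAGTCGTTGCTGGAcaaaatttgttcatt
Gm5483 (chr16:36186418-36186462, plus strand): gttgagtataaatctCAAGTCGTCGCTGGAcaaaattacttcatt
BC100530 (chr16:36364215-36364259, minus strand): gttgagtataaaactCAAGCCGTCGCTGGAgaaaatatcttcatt
Cstb (chr10:78426981-78427025, plus strand): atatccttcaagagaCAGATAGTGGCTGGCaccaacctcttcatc

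Each stretch lies within 1 exon. The 45 bases of *Stfa2l1* (chr16:36160000-36160044, plus strand) are the same as those of *Stfa2*. Reads that fall where copies are identical cannot be assigned to 1 copy, so the split of counts among stefin A genes is uncertain. In the last 500 transcript bases, where 3′ libraries place their reads, 21.4% of the 90-base windows of *BC100530* also occurred in *Stfa1* or *BC117090*, 15.4% of those of *Gm5483* in *2010005H15Rik*, and 2.09% of those of *Stfa2* in *Stfa2l1*. Of the windows of *Stfa2l1*, 2.42% occurred in *Stfa2*. *Stfa3*, which lies in the same cluster, and *Slpi*, *Wfdc17*, *Wfdc21*, and *Cstb*, which lie outside it, shared none.

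Upstream of the start sites, RefSeq (GRCm38.p6) gives a sequence for 7 of the 9 members, in which *Gm5483* is listed as *Cstdc4* and *BC100530* as *Cstdc5*. The 250 bases before the start shared 67.6% to 90.8% among the 5 stefin A genes. The 30 bases from 45 to 16 before the start are shown because all 5 genes were higher in mature than in immature marrow neutrophils, with the 6 letters TTTAAA, which read the same on both strands and overlap no other motif shown here, in capitals.

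Stfa2 (chr16:36408379-36408408, minus strand): ggagcttacagaaaccTTTAAAaccctgag
Stfa2l1 (chr16:36156766-36156795, plus strand): tttacagaaaccTTTAAAaccctgagtctc
Stfa3 (chr16:36455408-36455437, minus strand): gcttacagataaccTTTAAAaccccgagtc
Gm5483 (chr16:36184167-36184196, plus strand): ggagtttacagataccTTTAAAaccctgac
BC100530 (chr16:36367586-36367615, minus strand): ggagataagacactagaggaggagtttaca

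These letters stood in this window in 530 of 32817 promoters (1.62%). They stood in 4 of the 5 stefin A members, where they began between bases -33 and -29 from the start, and in the further copy *Stfa1*. In *BC100530* they began at base -9 from its annotated start, outside this window, and they were not in the 300 bases of *Slpi* and *Wfdc17*. The stefin A copies share most of these bases, so they are not separate cases.

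The stefin A genes were low in early marrow neutrophils and high in mature ones. *Stfa2*, stefin A2, had 0 UMIs in promyelocytes, where the 95% counting interval reaches 0.314 CPM. It stood at 4.58 in cycling pre-neutrophils, 55.3 in immature neutrophils, and 352 (95% counting interval 337 to 367) in mature neutrophils. It was at 66.6 in immature and 303 (283 to 324) in mature blood neutrophils, and at 249 (229 to 271) in tendon neutrophils. By CPM the order of mature neutrophils was thus marrow, blood, tendon, with each step beyond counting error. A *Stfa2* UMI was held by 79 of 421 marrow, 47 of 335 blood, and 62 of 562 tendon cells. The CPM intervals do not cover this uneven spread over cells. With cells thinned to equal depth, the shares were 9.83% (7.15% to 13.1%) in marrow and 10.5% (7.45% to 14.4%) in blood. In tendon the share was 7.38% (5.32% to 9.91%). These intervals overlapped, and the shares did not follow the CPM order. All intervals in the text cover counting error only, since each site has 1 library.

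*Stfa2l1*, the copy closest to *Stfa2*, had a different order. It was at 1.79, 18.3, and 83.5 CPM in the first 3 marrow stages and 867 (844 to 891) in mature marrow neutrophils. In blood it was at 524 in immature and 1866 (1816 to 1918) in mature neutrophils, and in tendon neutrophils at 1948 (1891 to 2007). Blood and tendon were both above mature marrow neutrophils, and the small step between them was just beyond counting error (log2 ratio 0.06, interval 0.00 to 0.12).

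*Gm5483* followed the same course with a wider range. It stood at 0.426, 3.09, 46.8, and 1032 CPM over the 4 marrow stages, at 471 and 2475 (2417 to 2534) in immature and mature blood neutrophils, and at 2556 (2491 to 2623) in tendon neutrophils. Mature blood and tendon neutrophils could not be told apart (log2 ratio 0.05, interval -0.00 to 0.10).

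*Stfa3* and *BC100530* differed from this pair. *Stfa3* was at 0.511, 34.1, 34.0, and 247 CPM over the marrow stages, at 46.2 and 167 in blood, and at 65.6 (55.5 to 77.0) in tendon neutrophils. Its value in cycling pre-neutrophils came from few cells, since 13 of 230 held a UMI of it. Of the 298 UMIs, 208 lay in a cluster where 3 of 106 cells held any. *BC100530* was the stefin A member most present in promyelocytes, at 21.2, and reached 59.1, 112, and 601 in the later marrow stages, with 256 and 451 in blood and 325 (302 to 349) in tendon. By CPM, both were higher in mature marrow neutrophils than in other neutrophils, lower in mature cells of blood, and lower again in those of tendon.

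**Figure D1:**
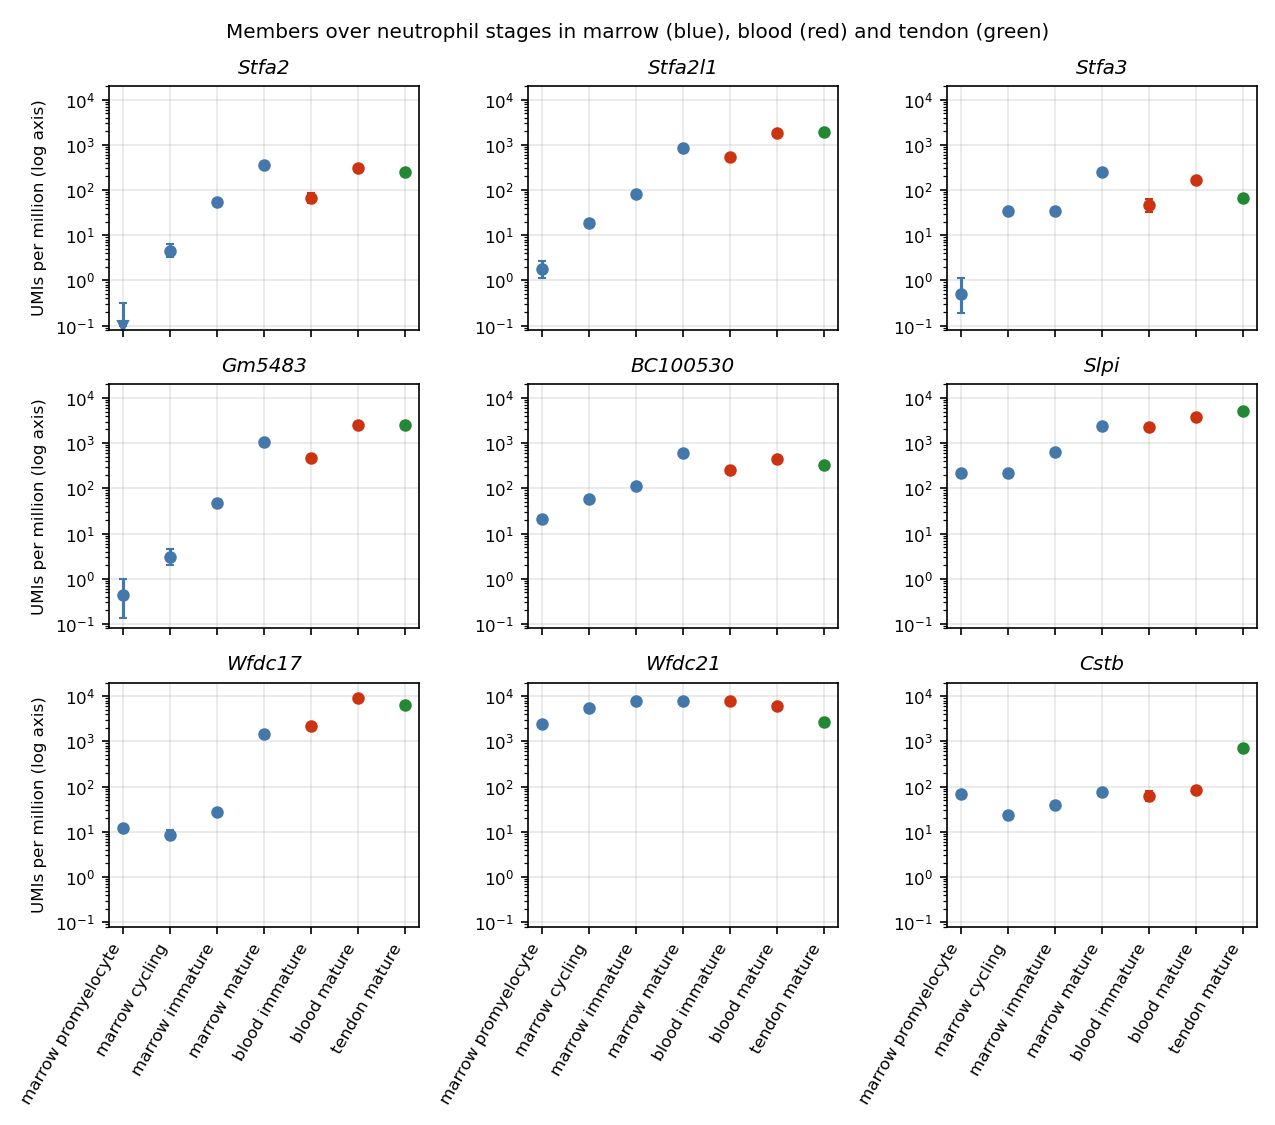
CPM (log axis) of each member over the marrow stages (blue), blood stages (red), and tendon neutrophils (green), with bars for the 95% counting interval; the triangle marks 0 UMIs. Wfdc17 went from 27.0 in immature to 1476 in mature marrow neutrophils and 8914 in mature blood neutrophils, whereas Wfdc21 was at 7696 and 7673 in the same 2 marrow stages and Cstb stood out only in tendon, at 726.

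Among UMIs of the 5 stefin A members, the share of each gene therefore shifted along this course. *BC100530* held 88.6% in promyelocytes, 49.6% in cycling pre-neutrophils, 33.8% in immature, and 19.4% in mature marrow neutrophils, and then 8.57% in mature blood and 6.31% in tendon neutrophils. The first share is 249 of 281 UMIs over 254 cells. With each cell thinned to 1000 UMIs, the 90th percentile of *BC100530* was 0 in promyelocytes and cycling pre-neutrophils, with maxima of 7 and 8. The early shares can thus rest on few cells. With further stefin copies of the locus counted, the 5 members held 35.4% in promyelocytes and 88.1% in mature marrow neutrophils. *Gm5483* held 1.78% in promyelocytes, 33.3% in mature marrow, 47.0% in mature blood, and 49.7% in tendon neutrophils. The sum of the 5 genes was 24.0 CPM in promyelocytes, 331 in immature and 3099 in mature marrow neutrophils, 5263 in mature blood, and 5144 in tendon neutrophils.

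The mature marrow cells fell into 3 clusters that differed in the same genes. *Gm5483* was at 524, 967, and 2048 CPM in them, *BC100530* at 491, 588, and 821, and *Stfa3* at 240, 167, and 355. The cluster with the highest values (144 cells) was led by *Gm5483*, *Wfdc17*, and *Ifitm1*, and its *Stfa2l1* level of 1735 was near that of mature blood neutrophils.

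In marrow and blood, stefin A transcripts were almost all in neutrophils. Of each member's UMIs, at least 99.4% in marrow and at least 99.04% in blood were in neutrophils. In blood T cells, which should lack them, the sum of the 5 genes was 1.20 CPM beside an *S100a8* level of 55.1.

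In tendon, 3 of the 5 were mainly elsewhere. Keratinocytes, the cells of the epidermis (185 cells, led by *Krt14* and *Krt5*), held 95.1% of *BC100530* UMIs, 88.1% of *Stfa3* UMIs, and 54.6% of *Stfa2* UMIs, and neutrophils held 2.91%, 3.85%, and 41.3%. *Stfa2l1* and *Gm5483* instead had 96.2% and 91.7% of their tendon UMIs in neutrophils. *BC100530* was at 3095 (3056 to 3134) CPM in keratinocytes, *Stfa3* at 438, and *Stfa2* at 96.1, while *Stfa2l1* was at 1.67 and *Gm5483* at 4.37. The 5 stefin A members thus fell into a pair seen mainly in neutrophils and 3 genes seen in both neutrophils and keratinocytes.

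Keratinocytes had a median of 38758 UMIs, against 3492 in tendon neutrophils, and tendon monocytes and macrophages, which had a median of 11813, held 7.32 CPM of *BC100530*. Tendon neutrophils held 39.6 CPM of *Cst6*, a cystatin at 3235 in keratinocytes and at 0 in blood neutrophils. The part of free keratinocyte RNA in the tendon values of *BC100530*, *Stfa3*, and *Stfa2* was not tested.

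**Figure D2:**
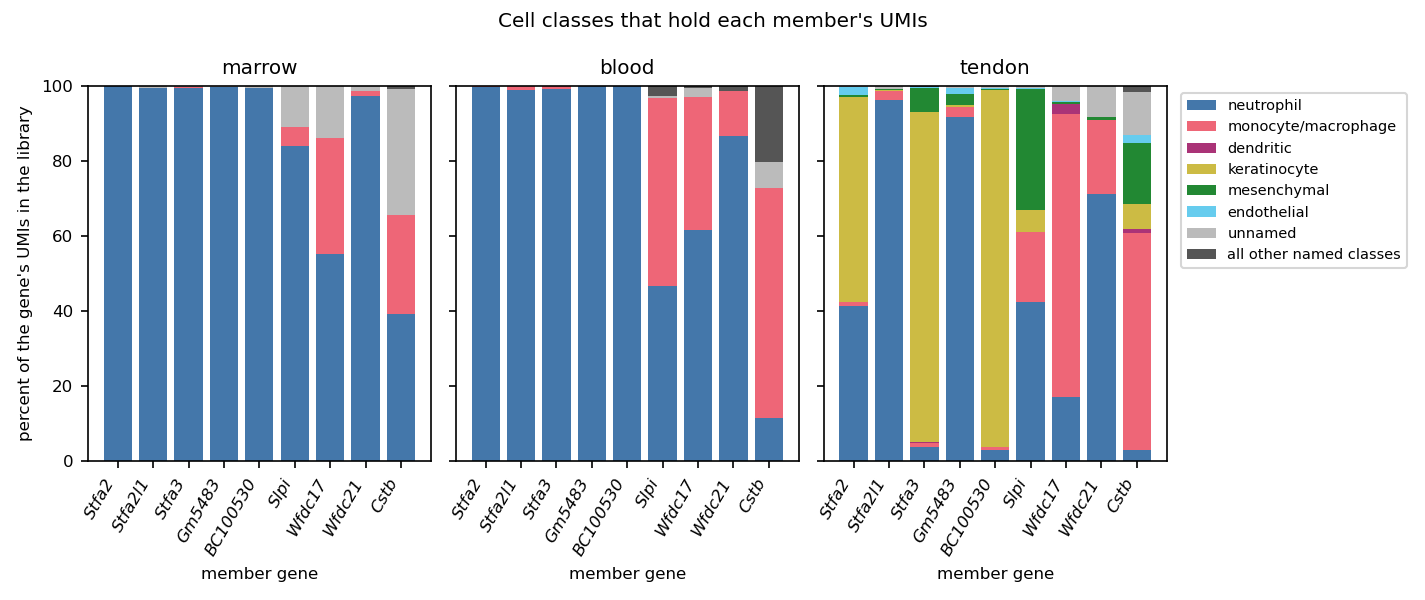
Percent of each member's UMIs in each library (vertical axis) that lay in each cell class (colours), for marrow, blood, and tendon. Neutrophils held nearly all stefin A UMIs in marrow and blood, whereas keratinocytes held 95.1% of BC100530 and monocytes and macrophages 75.2% of Wfdc17 in tendon.

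Stefin A transcripts were unevenly spread over mature neutrophils. With each cell thinned to 1000 UMIs, *Stfa2l1* was seen in 30.2% of 417 marrow, 46.1% of 332 blood, and 45.02% of 542 tendon cells, and *Gm5483* in 20.6%, 39.2%, and 42.6%. Without thinning the shares for *Stfa2l1* were 47.5%, 57.3%, and 53.4%. None of 737 thinned T cells of blood (median depth before thinning 8836 UMIs, against 8116 in mature blood neutrophils) held a UMI of either gene, which allows up to 0.407%.

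A few cells held much of the signal. The 42 mature marrow, 34 mature blood, and 55 tendon neutrophils with the most UMIs of the gene held 64.7%, 46.3%, and 52.3% of the *Stfa2l1* UMIs and 79.6%, 53.3%, and 49.7% of the *Gm5483* UMIs. For *Wfdc21* the 42 marrow cells with the most UMIs held 18.8%. *Wfdc21* had 3056 UMIs in the thinned mature marrow cells, against 445 of *Stfa2l1*. Such a share tends to be larger for a gene with fewer UMIs, so it does not measure uneven spread alone. In tendon, *Gm5483* was seen in 70.9% (64.8% to 76.5%) of the 244 cells with an *Stfa2l1* UMI and in 19.5% (15.1% to 24.4%) of the 298 without. In blood these shares were 56.9% and 24.0%, and in marrow 39.7% and 12.4%, so that in each library *Gm5483* was seen more often in cells with an *Stfa2l1* UMI than in those without. Cells of 1 library are not replicates, and these shares describe the libraries only.

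*Slpi*, the secretory leukocyte protease inhibitor, was present from the first stage. It was at 221, 218, 640, and 2386 (2348 to 2425) CPM over the marrow stages, at 2235 and 3782 (3710 to 3855) in blood, and at 5160.5 (5067 to 5255) in tendon neutrophils. Tendon neutrophils were the highest of the 20 cell groups with at least 50 cells. After thinning, *Slpi* was seen in 82.7%, 89.5%, and 85.6% of mature marrow, blood, and tendon neutrophils and in 1.76% of blood T cells.

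*Slpi* was also high in 2 small clusters of other cells. In blood, 38 cells led by *Prg4*, *Pf4*, and *C1qb*, genes of tissue macrophages, held 10404 CPM, whereas the 278 other monocyte/macrophage cells held 361. In tendon, 41 mesenchymal cells led by *Apod*, *Sfrp5*, and *Prg4* held 3750. Monocytes and macrophages held 50.3% of *Slpi* UMIs in blood beside 46.6% in neutrophils, and 86.1% of their UMIs were in the 38 cells. Mesenchymal cells held 32.4% in tendon beside 42.5% in neutrophils, and 50.9% of their UMIs were in the 41 cells.

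*Wfdc17* appeared late and was shared with macrophages. Its level was 12.3, 8.70, 27.0, and 1476 (1446 to 1507) CPM over the marrow stages, 2230 and 8914 (8804 to 9026) in blood, and 6233 (6131 to 6337) in tendon neutrophils. Within mature marrow neutrophils its clusters stood at 198, 985, and 4421. Mature blood neutrophils were the highest of the 20 groups. Mature marrow neutrophils could not be told apart from the named marrow monocytes and macrophages at 1447 (1408 to 1486). Those held 5331 of the 17212 marrow UMIs of *Wfdc17*. The unnamed marrow cells, among them the clusters with monocyte/macrophage markers, held 2367.

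Monocytes and macrophages held *Wfdc17* at every site, at 2442 CPM in blood and 2166 in tendon. Of the tendon *Wfdc17* UMIs, 75.2% were in these cells and 17.2% in neutrophils. Across the 7 tendon macrophage clusters the level ran from 1073 in cells led by *H2-Aa* and *Cd74*, through 1325 in cells led by *Arg1* and *Spp1* and 3017 in cells led by *Ccl8* and *Mrc1*, to 5682 in cells led by *Cd163* and *Lyve1*. Tendon dendritic cells were at 1250.

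*Wfdc21* had a different course, high from the cycling stage on and lower at the injury. It stood at 2474, 5346, 7696 (7638 to 7754), and 7673 (7604 to 7743) CPM over the marrow stages, at 7968 and 5971 in blood, and at 2645 (2578 to 2713) in tendon neutrophils. Immature and mature marrow neutrophils could not be told apart (log2 ratio -0.00). Among promyelocytes, the cluster led by *Elane* and histone genes held 4171 and the one led by *Ctsg* and *Mpo* 618. Thinned cells held a UMI in 99.5% of mature marrow, 97.0% of mature blood, and 68.3% of tendon neutrophils.

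*Cstb*, stefin B, was low in neutrophils of marrow and blood and higher in those of the tendon. It was at 70.0, 23.4, 40.1, and 74.2 CPM over the marrow stages, at 63.4 and 85.0 (74.5 to 96.5) in blood, and at 726 (691 to 762) in tendon neutrophils. The highest group was tendon monocytes and macrophages, at 1118 (1106 to 1131), followed by tendon neutrophils, keratinocytes at 467, dendritic cells at 393, and mesenchymal cells at 343. The tendon values were higher in several cell types, and monocytes and macrophages of blood stood at 247.

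After thinning, *Cstb* was seen in 7.19% of mature marrow, 7.23% of mature blood, and 43.0% (38.8% to 47.3%) of tendon neutrophils, beside 3.66% of blood T cells. Stefin B is made in most cells, so no class stands for its background. The summed level of 12 monocyte and macrophage markers was 1124, 475, and 365 CPM in marrow, blood, and tendon neutrophils, with 0, 1, and 0 of the 12 at 0 UMIs, and 9736 in tendon monocytes and macrophages. Single markers differed in direction. *Csf1r* was at 65.8 CPM in blood and 55.9 in tendon neutrophils, whereas *C1qa* was at 1.08 and 15.9. The part of RNA from other cells in the *Cstb* level of tendon neutrophils was not tested.

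**Figure D3:**
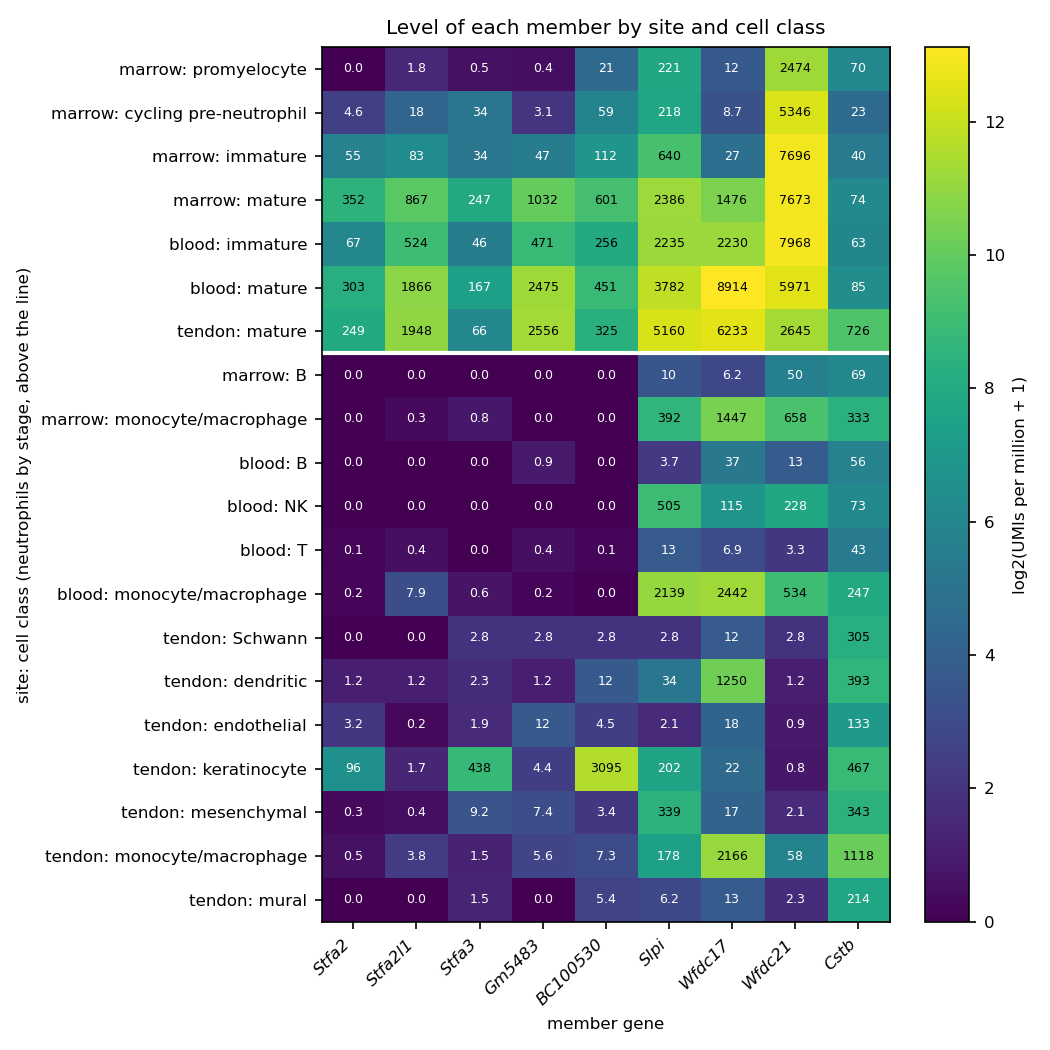
CPM (printed numbers; colour on a log2 scale after adding 1) of the 9 members (columns) in the 20 site and cell class groups with at least 50 cells (rows), with neutrophil stages above the white line. BC100530 and Stfa3 are high in tendon keratinocytes (3095 and 438), Wfdc17 in monocytes and macrophages of all sites (1447 to 2442), and Cstb in most tendon classes.

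To compare the sites, members were counted as higher or lower when CPM differed by at least 2-fold with an interval off 0, among genes with at least 20 UMIs over both groups. All 9 members met this minimum in the neutrophil comparisons. In neutrophils from tendon against blood, 1 member was higher (16.3% of the 6825 genes were) and 2 were lower (13.7% of the genes). *Cstb* was higher by 3.19 on the log2 scale (3.01 to 3.37), *Wfdc21* lower (-1.29) and *Stfa3* lower (-1.06). The members' median was 0.03 and that of all genes -0.03, with members on both sides. The other 6 lay between -0.31 (*BC100530*) and 0.60 (*Slpi*). With cluster 3 as the only tendon neutrophils, 0 members were lower, and with no filter on cells or with integrated clustering *Wfdc21* alone was.

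The scale matters here, because *S100a8* itself was at 73340 CPM in tendon and 153694 in blood neutrophils. Per *S100a8* UMI, a scaling added after seeing the data, 5 members were higher in tendon (*Stfa2*, *Stfa2l1*, *Gm5483*, *Slpi*, and *Cstb*) and 0 were lower, and the median of all genes moved from -0.03 to 1.04, with 50.02% of genes higher and 1.76% lower. On that scale *Stfa3* was at 0.0056, *Wfdc21* at -0.22, *Slpi* at 1.67, and *Cstb* at 4.26. *Cstb* was thus higher in tendon on both scales, and by more than the median gene.

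Blood neutrophils were mostly mature cells (335 of 390), whereas marrow neutrophils were spread over 4 stages. In blood against marrow neutrophils, 7 of 9 members were higher (13.1% of 10835 genes) and 0 were lower (39.9%), with a median of 1.68 beside -0.81 for all genes. *Wfdc17* was higher by 4.75, *Gm5483* by 3.37, *Stfa2l1* by 3.12, and *Slpi* by 2.28, and *Wfdc21* (0.27) and *Cstb* (0.62) were within 2-fold.

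With mature cells alone, a comparison added after seeing the data, 3 of 9 members were higher in blood than in marrow (10.3% of 7099 genes) and 0 were lower (7.94%). These were *Wfdc17* (2.59), *Gm5483* (1.26), and *Stfa2l1* (1.11). The mature marrow cells pool the clusters described above, which differed in these genes, so the ratios depend on their mix. In *Wfdc17*, *Gm5483*, and *Stfa2l1* the marrow cluster led by *Gm5483*, *Wfdc17*, and *Ifitm1* was nearer to mature blood neutrophils than the pooled cells were. It was farther from them in *Stfa2* (559 CPM, against 352 in the pooled cells and 303 in blood). The same held for *Stfa3* (355, against 247 and 167) and for *BC100530*. *Stfa2* (-0.22), *Stfa3* (-0.56), and *BC100530* (-0.41) turned to the other direction, and the members' median was 0.20 beside 0.11 for all genes. Between mature tendon and mature blood neutrophils the same count held, with 1 higher (17.4% of 6480 genes) and 2 lower (13.9%), and values of 3.09 for *Cstb*, -1.17 for *Wfdc21*, and -1.35 for *Stfa3*. The members' median was -0.28 there, beside -0.05 for all genes. The name mature was given within each library, so the cells compared between sites can still differ in stage.

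**Figure D4:**
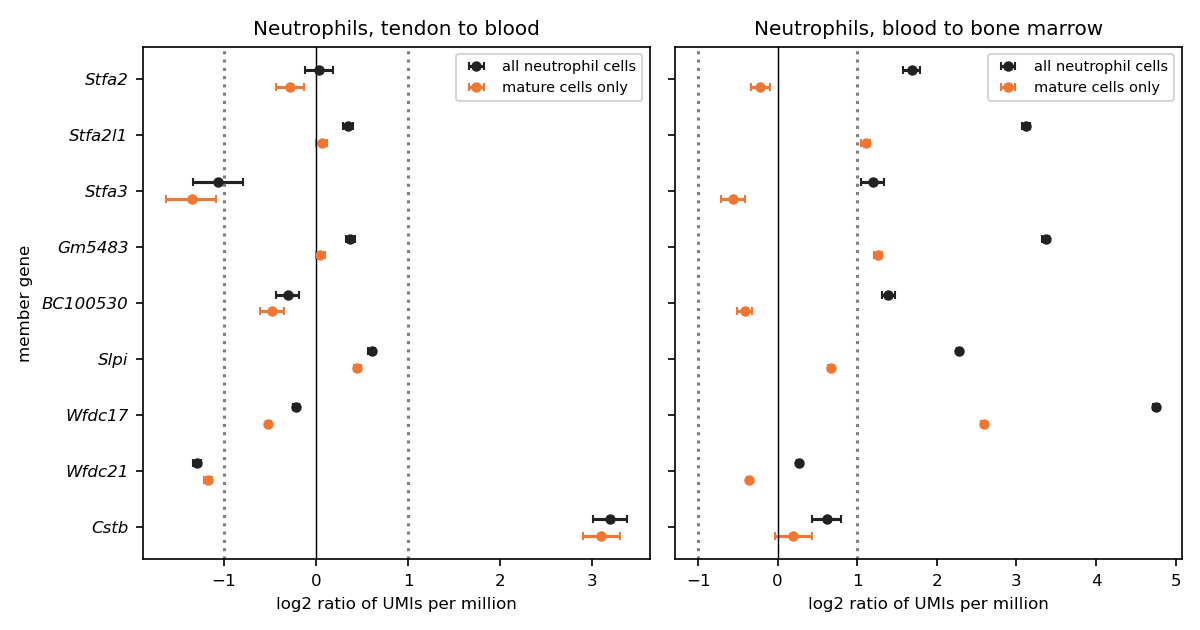
log2 ratio of CPM (horizontal axis) of each member (vertical axis) in neutrophils of tendon to blood (left) and blood to marrow (right), for all neutrophils (black) and mature ones (orange), with 95% counting intervals; dotted lines mark 2-fold. Cstb stands apart on the left, at 3.19 and 3.09, and on the right Stfa2, Stfa3, and BC100530 cross 0 when mature cells alone are used.

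Within the marrow library, where site and preparation are fixed, 7 of 9 members were higher in mature than in immature neutrophils (10.3% of 8118 genes) and 0 were lower (14.7%), with a median of 2.67 beside -0.06 for all genes. *Wfdc17* had the largest ratio, 5.78 (5.59 to 5.97), followed by *Gm5483* at 4.46 and *Stfa2l1* at 3.38. *Wfdc21* (-0.00) and *Cstb* (0.89) were within 2-fold. These genes were chosen for leading late neutrophils, so the count only describes that choice.

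Earlier in the course, from promyelocytes to immature neutrophils, 8 of 9 members were higher (10.9% of 10182 genes) and 0 were lower (51.3%). This comparison passes over the cycling pre-neutrophils that lie between them. The ratio was at least 7.76 for *Stfa2*, set against the floor of 3 UMIs over all promyelocytes, 6.78 for *Gm5483*, 6.05 for *Stfa3*, and 5.54 for *Stfa2l1*. *Wfdc21* was higher here, by 1.64, and *Cstb* was at -0.80. The 5 stefin A genes were thus already higher in immature neutrophils than in promyelocytes, while *Wfdc17* differed by 1.13 here and by 5.78 at the later step.

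In blood, 5 of 9 members were higher in mature than in immature neutrophils (14.6% of 5790 genes) and 0 were lower (7.31%). *Gm5483* differed by 2.40, *Stfa2* by 2.18, and *Stfa2l1* by 1.83, in the same direction as in marrow. *Slpi* (0.76) and *BC100530* (0.82) were within 2-fold here.

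Against all other cells of the same library, neutrophils were higher in 6 members in marrow (6.5% of 11901 genes) and lower in 2 (40.7%), higher in 8 in blood (9.69% of 11477) and lower in 0 (58.2%), and higher in 6 in tendon (8.91% of 15266) and lower in 0 (51.3%). The 2 lower in marrow were *Cstb* (-2.08) and *Wfdc17* (-1.15), of which *Wfdc17* was within 2-fold under 7 of the alternative settings. In tendon, *Stfa3* (0.53), *BC100530* (0.12), and *Cstb* (0.15) were within 2-fold.

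Against monocytes and macrophages, the other phagocytes of each site, neutrophils were higher in 6 members in marrow (11.2% of 11044 genes) and lower in 2 (28%), higher in 7 in blood (10.3% of 9578) and lower in 1 (54.3%), and higher in 8 in tendon (9.67% of 11517) and lower in 0 (48.7%). *Wfdc17* changed side, at -2.43 in marrow, 1.57 in blood, and 1.52 in tendon. *Slpi* was at 0.83, 0.67, and 4.86, and without the 38 blood cells rich in *Slpi* its blood value was 3.23, which makes 8 members higher. *Cstb* was at -2.69, -1.63, and -0.62.

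Monocytes and macrophages of tendon and blood differed in some of the same genes. Of the 8 members tested, 3 were higher in tendon (16.9% of 11723 genes) and 3 lower (12.1%). Besides *Cstb*, the higher ones were *Gm5483* (5.64 CPM in tendon, 0.158 in blood) and *BC100530* (7.32 CPM in tendon, 0 UMIs in blood). Both were low in these cells, and the part of RNA from other cells in them was not tested. *Cstb* was higher by 2.18 (2.11 to 2.26), next to 3.19 in neutrophils. *Slpi* was lower (-3.59) in these cells and higher (0.60) in neutrophils, and without the 38 blood cells at 10404 CPM the value in these cells was -1.02. *Wfdc21* was lower in both cell types, at -3.20 and -1.29.

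Tendon neutrophils formed 2 clusters in which the members differed. The larger, cluster 3 (341 cells, median 4226 UMIs), was led by *Retnlg* and *S100a9*, and cluster 12 (221 cells, median 2650 UMIs) by the chemokine gene *Ccl3* and by *Irg1*, the gene of the enzyme that makes itaconate. *Irg1* was also among the leading genes of cluster 3. In cluster 12 against cluster 3, 1 member was higher (12.5% of 4913 genes) and 4 were lower (5.56%). The members' median was -0.98 beside 0.18 for all genes.

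*Cstb* was at 1433 CPM in cluster 12 and 452 in cluster 3, a log2 ratio of 1.66 (1.52 to 1.81). *Wfdc21* was at 1070 and 3255 (-1.61), *BC100530* at 151 and 392 (-1.37), *Stfa2* at 139 and 292 (-1.07), and *Stfa3* at 37.9 and 76.4 (-1.01). *Wfdc17*, at 3671 and 7225, was just under 2-fold (-0.98), and *Slpi* was nearly level, at 4744 and 5322. Cluster 3 resembled mature blood neutrophils in the stefin A genes other than *Stfa3*, with values within 2-fold, whereas its *Cstb* was above the blood value of 85.0. Among single tendon neutrophils, *Cstb* was seen in 38.2% of the 432 cells with a *Wfdc17* UMI and in 61.8% of the 110 without.

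**Figure D5:**
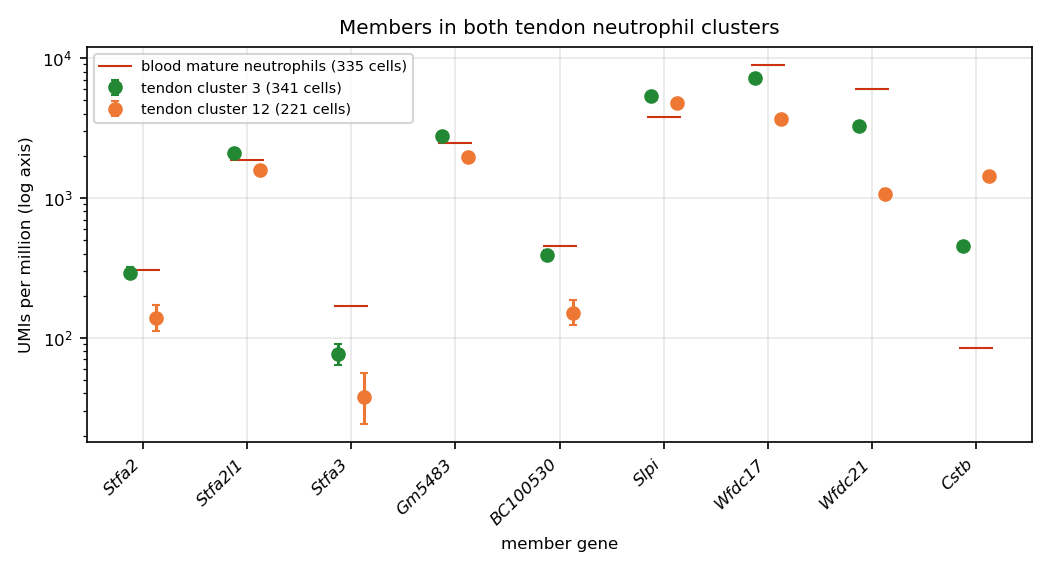
CPM (log axis) of each member in both tendon neutrophil clusters, with 95% counting intervals, and in mature blood neutrophils (red dashes). Cluster 12 has more Cstb (1433 against 452) and less Wfdc21, Wfdc17, BC100530, Stfa2, and Stfa3 than cluster 3, and both clusters are above blood for Slpi and Cstb.

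A list of 11 protease genes held the cysteine cathepsins, on which stefins act, together with legumain. Of these genes, 7 could be compared between tendon and blood neutrophils. In tendon 5 of these 7 were higher and 0 lower, where 16.3% and 13.7% of all genes were, with a median of 2.41 beside -0.03. *Ctsb*, cathepsin B, was at 80.6, 101, and 545 CPM in marrow, blood, and tendon neutrophils (tendon to blood 2.43), *Ctsz* at 116, 51.8, and 276 (2.41), *Ctsl* at 11.0, 25.3, and 198 (2.97), and *Ctsc*, which activates the granule serine proteases, at 27.7, 24.0, and 112 (2.23). Like *Cstb*, these 4 genes were past 2-fold higher, whereas the stefin A members ranged from -1.06 (*Stfa3*) to 0.37 (*Gm5483*). Within tendon, all 10 of the list that could be compared were lower in neutrophils than in monocytes and macrophages (48.7% of all genes), with a median of -3.22. The part of RNA from other cells in the protease levels of tendon neutrophils was not tested. From marrow to blood, 3 of 8 in the list were higher and 1 was lower (13.1% and 39.9% of all genes). From immature to mature marrow neutrophils 3 of 7 were higher and 0 lower (10.3% and 14.7% of all genes).

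The granule serine proteases include elastase (*Elane*) and cathepsin G (*Ctsg*), which Slpi blocks. *Elane*, *Prtn3*, and *Ctsg* were among the markers that named promyelocytes, so their height in early cells follows from the naming. *Prtn3*, *Elane*, and *Ctsg* were at 3620, 2809, and 1211 CPM in marrow neutrophils. In blood *Prtn3* was at 10.5, *Ctsg* had 0.270, and *Elane* had 0 UMIs. *Prss57* went from 100.4 in marrow to 8.90 in blood. All 4 were lower in blood than in marrow neutrophils, as were 39.9% of all genes. In mature cells alone 1 of the 3 compared was higher and 1 lower, where 10.3% and 7.94% of all genes were.

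Of 12 serpins, the larger inhibitors of serine proteases, 5 of the 6 compared were lower in blood than in marrow neutrophils and 0 higher, where 39.9% and 13.1% of all genes were. *Serpinb1a*, which blocks neutrophil elastase, was at 1111, 90.6, and 26.0 CPM in marrow, blood, and tendon neutrophils. Of the 3 compared between tendon and blood, *Serpinb1a* was lower (-1.80), *Serpinb2* was higher (4.09), and *Serpinb6a* was within 2-fold. Of all genes, 16.3% were higher and 13.7% lower. In mature cells alone *Serpinb1a* turned to the other direction (1.04) and all 3 were higher in tendon, where 17.4% of all genes were higher and 13.9% lower.

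Among the 12 other cystatins found, 5 could be compared between tendon and blood neutrophils, with 3 higher and 0 lower (16.3% and 13.7% of all genes). The higher ones included *Cst6*, which, as given above, was far higher in keratinocytes. The part of RNA from other cells in this count was not tested. *Stfa1*, a further stefin A copy, was at 121, 481, and 331 CPM in marrow, blood, and tendon neutrophils and at 903 in keratinocytes. *Cst3*, the secreted cystatin C, was at 401, 484, and 569. From immature to mature marrow neutrophils 4 of 5 in this list were higher and 0 lower (10.3% and 14.7% of all genes), and from marrow to blood 3 of 6 were higher and 1, *Cst7*, was lower (13.1% and 39.9%). Of 17 other WAP genes found, only *Wfdc18* could be compared between the sites, at 0.508, 10.2, and 7.93.

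The genes whose levels were most like those of each member over the 20 groups were found by Pearson's r of log2(CPM + 1) among 13391 genes. The 20 groups come from 3 libraries and share their depth and their stage order, so r is a description. For *Stfa2l1* these were *Dhrs9* (0.98), *Gm17619* (0.98), and *Amer2* (0.97), and for *Gm5483* *Prok2* (0.95), *Myl2* (0.95), and *Gm17619* (0.94). *Stfa2*, *Stfa3*, and *BC100530* were most like one another and *Stfa1*, with r from 0.91 to 0.97, except that *Asprv1* (0.94) came first for *Stfa2*.

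For *Wfdc17* the most similar genes were *Cd300ld*, *Gm5150*, and *Sirpb1b* (each 0.96), and for *Slpi* *Pygl* (0.90), *Pi16* (0.89), and *Nlrx1* (0.89). For *Wfdc21* they were *F630028O10Rik* (0.98), *S100a8* (0.97), and *Cd177* (0.97). For *Cstb* they were *Plekhm2* (0.92) and the cathepsin genes *Ctsl* (0.90) and *Ctsb* (0.89). Among members, r was highest for *Stfa3* with *BC100530* (0.95) and *Stfa2l1* with *Gm5483* (0.93) and lowest for *Wfdc21* with *Cstb* (-0.39).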

How the data were processed

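Single-cell libraries (10x 3′ v3) of marrow, blood, and tendon were used as deposited: matrices of raw UMI counts per gene and barcode, which the authors made with Cell Ranger 5.0.1 (file header) on mm10 (submitters' processing notes). Cell Ranger drops reads that map to several genes. The 9 members and 5 pathway lists were chosen with earlier results of these data known. Cells with at least 200 genes and at most 20% mitochondrial UMIs were kept. Doublets were scored by Scrublet in scanpy 1.11.5, and the highest-scoring 0.8% per 1000 cells of each library (27, 38, and 198 cells) were removed. Each library was clustered alone (2000 variable genes without 70 genes of the members' families, 30 components, 15 neighbors, Leiden resolution 1). A cluster was named from at least 3 fixed markers among its 100 leading genes, provided that the next class had at most 0.5 times as many and that the median cell had UMIs of a larger share of that class's marker list than of any other list. This naming rule was settled after the clusters were seen. UMIs were summed per class and given as CPM, with exact Poisson 95% intervals. Intervals of log2 ratios were taken from the exact binomial split of both UMI sums, and those of shares are Clopper-Pearson, on cells thinned to 1000 UMIs. The interval code was tested on simulated counts. With 1 library per site there is no test and no p-value. Of each list, at most 4 genes with the highest levels are named, and *Cst7* was named after its value was seen. Positions are from GENCODE M21 (GRCm38). Alternatives included Seurat 5.3.0 integration. Python 3.11.15 and R 4.3.3 were used.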

Additional observations from a re-analysis of the deposited data

Results flagged for a closer look

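Of 72 combinations of 9 members with 8 pairs of comparisons, 8 had log2 ratios on opposite sides of 0, both beyond counting error and at least 1 of them past 2-fold, and none of these differences was tested. *Wfdc17* in neutrophils against all other cells was at -1.15 in marrow, 2.97 in blood, and 2.91 in tendon. Against monocytes and macrophages it was at -2.43, 1.57, and 1.52. *Cstb* in neutrophils against all other cells was at -2.08 in marrow and 0.15 in tendon. For tendon against blood, *Stfa2l1* was at 0.35 in neutrophils and -1.05 in monocytes and macrophages, *BC100530* at -0.31 and at least 3.95, and *Slpi* at 0.60 and -3.59, of which the last was -1.02 without 38 blood cells at 10404 CPM. Both stefin A genes were low in tendon and blood monocytes and macrophages, with *Stfa2l1* at 3.82 and 7.88 CPM and *BC100530* at 7.32 CPM and 0 UMIs. The part of RNA from other cells in these low levels was not tested. The marrow neutrophils of the *Wfdc17* values included 254 promyelocytes, 230 cycling pre-neutrophils, and 383 immature cells, whose part in them was not tested.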

How the results depend on the processing

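Of 244 recomputed counts of members past 2-fold, 228 stayed within 1.5 times the main count and 16 moved. Of 1098 recomputed log2 ratios of members, 486 moved beyond their counting interval and 4 reversed. Reversal was counted only for ratios past 2-fold in the main setting, and smaller ratios also changed sign. For *Stfa2* in tendon against blood neutrophils this happened in 8 of 16 settings. For *Wfdc21* in mature against immature marrow neutrophils it happened in 5 of 13. Of 54 shares of cells at other depths, 40 moved. Such a share falls when fewer UMIs are kept per cell and rises when more are, so moves are built into this count. The 2 members lower in tendon than in blood neutrophils became 1 (*Wfdc21*) with no filter on cells and with Seurat integration. They became 0 with tendon cluster 3 only and per *S100a8* UMI. Per *S100a8* UMI, 5 were higher in tendon in place of 1 and *Stfa3* reversed (0.0056). The 7 members higher in blood than in marrow neutrophils became 4 (*Stfa2l1*, *Gm5483*, *Slpi*, *Wfdc17*) with the mean of per-cell values. With mature cells only they became 3 (*Stfa2l1*, *Gm5483*, *Wfdc17*), and *Stfa2* (-0.22), *Stfa3* (-0.56), and *BC100530* (-0.41) reversed. The settings with mature cells, cluster 3 only, *S100a8* scaling, or without 38 blood cells were chosen after seeing the data. In marrow neutrophils against all other cells, the 2 members lower became 1 (*Cstb*) with no doublets removed, Seurat integration, resolution 2, members kept among the variable genes, scaling without 14 abundant genes, the mean of per-cell values, and cells named one by one. In blood against monocytes and macrophages, the 1 member lower (*Cstb*) became 0 with that scaling and with cells named one by one. Scaling without abundant genes moved the median of all genes from -0.03 to -0.32 between tendon and blood neutrophils, from -0.81 to -0.61 between blood and marrow, and from -0.84 to -0.19 in marrow neutrophils against other cells. The cause of the moves was not tested. No paired analysis was possible because each site has 1 library. The median of 3492 UMIs in tendon neutrophils limits what their single cells show.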
